A study of Mus musculus with 6 samples.

Results

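The 10 genes described here are known to hold T cells in quiescence or to slow their proliferation. They are Klf2, Btg1, Btg2, Tob1, Slfn1, Slfn2, Cdkn1b, Pdcd4, Txnip and Tsc22d3, and they were picked by name from the 36811 genes of the expression table. RNA was sequenced from regulatory T cells (Treg), taken from the spleen of mice, enriched as CD4+ cells and sorted for EGFP driven by Foxp3, whose product is the defining transcription factor of Treg. The 3 libraries labelled cKO carried the genotype Bach2fl/fl Foxp3EGFP-Cre-ERT2, and the 3 labelled WT carried Bach2+/+ Foxp3EGFP-Cre-ERT2. All came from C57BL/6 mice aged 18 to 21 weeks. Both groups thus share the EGFP and the Cre-ERT2 recombinase at Foxp3. Cre-ERT2 acts only after tamoxifen and only in cells that express Foxp3, and the sources used here give neither a tamoxifen treatment nor the deleted part of Bach2. BACH2 is a transcriptional repressor of effector programs in T cells, and the comparison asks how Treg differ when its gene can be deleted.

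A resting T cell stays out of the cell cycle by active means. FOXO transcription factors keep quiescence genes such as Klf2 transcribed, BTG proteins direct messenger RNAs to the CCR4-NOT complex that shortens their poly(A) tails, and p27, the product of Cdkn1b, blocks the kinases that start DNA replication. TXNIP and PDCD4 hold back glucose uptake and translation. Many of these genes are switched off when a T cell is activated through its receptor, and Treg that have been activated carry less Klf2 than resting ones.

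The labels could not be checked on the targeted gene. Bach2 measured 7.885 FPKM (fragments scaled for the length of the transcript and the size of the library) in cKO 1, 9.189 in cKO 2 and 6.44 in cKO 3, against 3.293 in WT 1, 8.246 in WT 2 and 4.799 in WT 3. The cKO label thus did not come with lower Bach2, and each direction given here rests on the labels alone. The study's design text describes another contrast, Bach2-high against Bach2-low Treg of reporter animals, while the sample labels give the genotypes above, and the groups follow the labels. Whether the libraries of a group are from different mice is not in the labels, and the p-values then speak only of the spread among these libraries. Depth, estimated from the steps of low FPKM values, was lowest in WT 2 at about 3010000 fragments and highest in cKO 2 at about 4890000. The defining Treg gene Foxp3 was present in every library, at 5.16 to 9.44 FPKM. Summed FPKM of marker genes of other cells overlapped between the groups for B cells, at 119 to 157 in the libraries labelled cKO and 106 to 151 in those labelled WT. They did not overlap for 4 erythroid genes, at 129 to 277 against 33.0 to 112, for 7 myeloid genes, at 286 to 412 against 253 to 271, and for 5 genes of CD8 T and NK cells, at 105 to 130 against 82.0 to 102. No gene of these lists passed the test given below. The groups did not overlap for 2 of the 4 erythroid genes, 0 of the myeloid genes and 2 of the 5 CD8 T and NK cell genes. Of all genes tested, 10.7% did not overlap. Of the 2 CD8 T and NK cell genes, Klrd1 was lower under the cKO label. The other, Nkg7, made up most of the CD8 T and NK cell sum. It stood at 83.34, 107.2 and 89.2 FPKM under the cKO label and 79.19, 62.65 and 59.58 FPKM under the WT label. Cd8a, Cd8b1 and Ncr1 overlapped. The neutrophil gene Ly6g was listed at 0 in cKO 3 and in every library labelled WT, and the NK cell gene Klrd1 at 0 in cKO 1. In bulk RNA, fewer cells of a type and less RNA per cell cannot be told apart.

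All 10 genes were expressed, and none passed the test between the groups. Each had a mean of at least 1 FPKM and was tested among 11979 genes with limma on log2(FPKM + 1), with Benjamini-Hochberg adjustment over all of them and a threshold of 0.05. Of all genes tested, 3, or 0.025%, passed. At an unadjusted p under 0.05 stood 1 of the 10, Tsc22d3, against 5.37% of all genes. The 3 libraries of one group all lay apart from the 3 of the other for 1 of the 10, again Tsc22d3, which is 10% of them against 10.7% of all genes. That shift was toward lower values in the libraries labelled cKO, which 3.75% of all genes showed. The shares among the 10 are thus near those of all genes where either direction is counted.

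The differences of most of the 10 were small. The median log2 difference, cKO minus WT, was -0.0047 for the 10 and 0.033 for all genes tested. It lay above 0 for 4 and below 0 for 6, though Btg2, Tob1 and Pdcd4 changed sign when the libraries were scaled to equal sums and Btg1 and Slfn2 under quantile normalization. Of all genes, 55.0% lay above 0, and scaling to equal sums moved their median to 0.176. For 8 of the 10 it was under 0.2 in size, which held for 52.9% of all genes. The 95% interval lay within a 2-fold change in either direction for the same 8, that is all but Txnip and Tsc22d3. Most of the 10 also varied little between libraries, with a median SD of 0.179 on the log2 scale over the 6 libraries against 0.306 for all genes. Their levels were higher than most, at a median of 90.3 FPKM against 14.1 FPKM for all genes tested. The comparisons of SD and of the size of differences were not matched for level. The part of level in them was not tested.

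**Figure D1:**
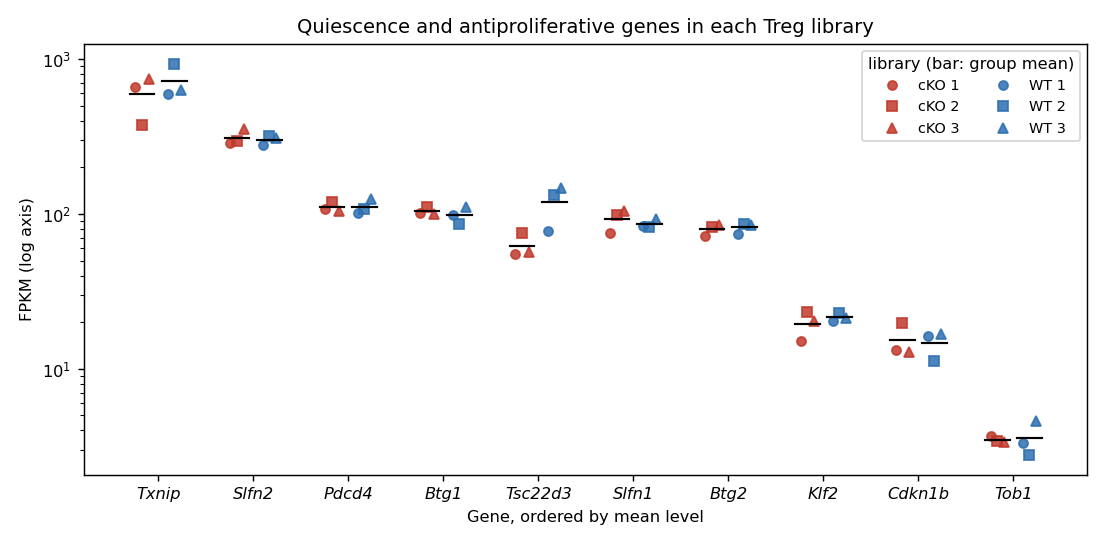
FPKM (log axis) of the 10 genes in each of the 6 libraries, ordered by mean level, with red points for libraries labelled cKO, blue points for those labelled WT and bars for group means. The red and blue points overlap for every gene but Tsc22d3, where the highest red point (75.68 FPKM) lies just under the lowest blue one (78.08 FPKM).

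FPKM is scaled for transcript length, so the levels can be ordered. Txnip was highest, between 374.2 and 935 FPKM, and lay above 98.1% of the genes tested in its mean. Slfn2 followed at 278.1 to 352.9 FPKM, and neither range met its neighbour's. Pdcd4 came next at 101.2 to 125.7 FPKM and Btg1 at 86.57 to 111.1 FPKM, and their ranges overlapped. Tsc22d3, Slfn1 and Btg2 also overlapped one another, and so did Klf2, at 15.11 to 23.28 FPKM, and Cdkn1b, at 11.2 to 19.91 FPKM. Tob1 was lowest, at 2.769 to 4.588 FPKM, below Cdkn1b in every library. The depth estimate puts 5173 to 8188 fragments behind each Txnip value and 19 to 41 behind each Tob1 value, so Tob1 has by far the largest counting error of the 10.

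The libraries did not line up by label over the 10 genes. WT 3 held the highest value for 4 of them and cKO 1 the lowest for 4. WT 2 was highest for 2 and lowest for 3, and cKO 2 was highest for 2 and lowest for 1. The median deviation from the 6-library mean ran from -0.124 in cKO 1 to 0.106 in WT 3 on the log2 scale. The widest deviations were those of Txnip and Tsc22d3.

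**Figure D2:**
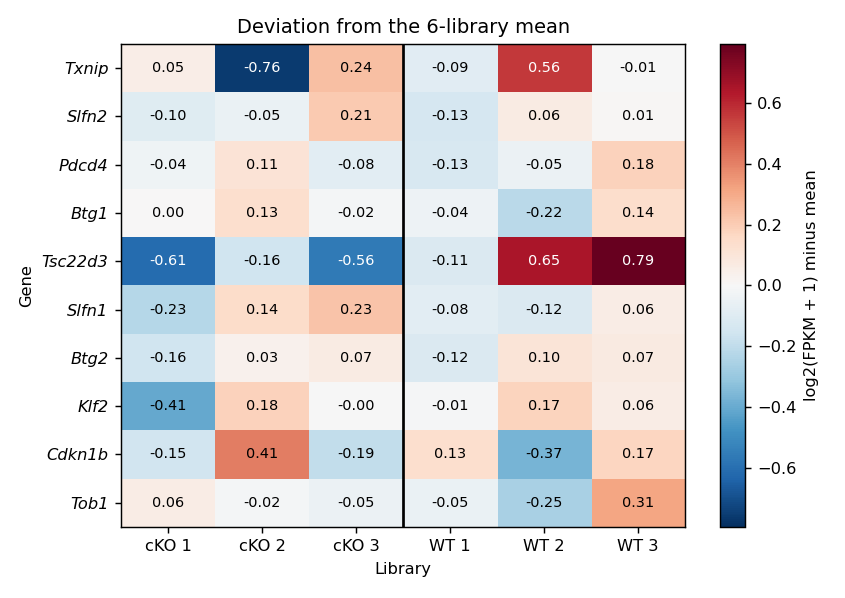
Deviation of log2(FPKM + 1) from the mean of the 6 libraries for each of the 10 genes (rows, ordered by mean level) and each library (columns, with a line between the groups), red above and blue below the mean. Txnip is low in cKO 2 and high in WT 2, while Tsc22d3 is below its mean in cKO 1, 2 and 3 and in WT 1 and above it in WT 2 and 3.

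Klf2 encodes a zinc finger transcription factor that keeps T cells resting and drives the genes of lymphocyte recirculation. It measured 15.11 FPKM in cKO 1, 23.28 in cKO 2 and 20.29 in cKO 3, against 20.23 in WT 1, 23.1 in WT 2 and 21.28 in WT 3. One library, cKO 1, was low, and the other 5 lay close together, so the groups overlapped. The means were 19.56 ± 4.13 FPKM (SD, n = 3) and 21.54 ± 1.45 FPKM (SD, n = 3). The log2 difference was -0.15 with a 95% interval from -0.60 to 0.30 (limma, adjusted p = 0.946). Leaving out cKO replicate 1 brought it to 0.014.

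Of 11 regulators and targets of KLF2 in T cells, 10 were tested and 0 passed, with 4 above 0 and 6 below and a median log2 difference of -0.103. Foxo1, whose product drives Klf2, measured 10.78, 15.59 and 13.7 FPKM under the cKO label and 12.79, 15.29 and 15.06 FPKM under the WT label. S1pr1, the egress receptor and a direct KLF2 target, had a log2 difference of -0.097 (adjusted p = 0.953). Ccr7, the gene of a lymph node homing receptor, measured 282.5, 302.6 and 367.6 FPKM under the cKO label and 412.9, 529.5 and 447.3 FPKM under the WT label. The groups did not overlap, and the log2 difference of -0.54 did not pass (limma, adjusted p = 0.874). The sums of erythroid and myeloid markers given above also separated the groups, and their part in the Ccr7 values was not tested.

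Btg1 and Btg2 encode adaptor proteins that bring the CCR4-NOT deadenylase to messenger RNAs, and in the mouse their joint loss breaks T cell quiescence. Btg1 measured 101.0 FPKM in cKO 1, 110.6 in cKO 2 and 99.54 in cKO 3, against 97.72 in WT 1, 86.57 in WT 2 and 111.1 in WT 3. Btg2 stood at 72.12, 82.53 and 84.33 FPKM and at 74.27, 86.62 and 84.7 FPKM in the same order. Both were even across the libraries and overlapped between the groups. In log2 terms the difference was 0.080 for Btg1, with a 95% interval from 0.842-fold to 1.33-fold (limma, adjusted p = 0.967). For Btg2 it was -0.039, with an interval from 0.784-fold to 1.21-fold (adjusted p = 0.985). These folds are of FPKM + 1. Of the stretches of 50 bases in the Btg1 transcripts, 2.49% also occur in Gm14519.

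Tob1, the gene of a related antiproliferative protein known as a brake on T cell activation in human cells, measured 3.686 FPKM in cKO 1, 3.442 in cKO 2 and 3.357 in cKO 3. It measured 3.329 FPKM in WT 1, 2.769 in WT 2 and 4.588 in WT 3, so the WT libraries held both its highest and its lowest value. Between the groups the log2 difference was -0.0025, with a wide interval, from -0.56 to 0.56. Among the other members of the family, Tob2 stood at 8.785 to 12.67 FPKM over all 6 libraries. Btg3 stood at 0.2507 to 3.055 FPKM, and neither passed. The deadenylase list holds 11 Cnot genes and Pabpc1, the gene of a poly(A)-binding protein, and of these 12 genes 12 were tested and 0 passed, with 8 above 0 and 4 below. The smallest p values of that list were those of Cnot2, Cnot11 and Cnot8, with log2 differences of 0.28, 0.28 and 0.38.

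The promoters of 4 genes are shown, 3 here and that of Tsc22d3 with its values, because a motif searched for lies in each. RefSeq windows from 250 bases before to 50 bases after a start site (build GRCm38.p6) were found for all 10 genes, 13 windows in all. They were searched on both strands for 5 motifs. The FOXO core TGTTTAC was found in Btg1, 204 bases before the start, and in Txnip, 121 bases before it, and 3.65% of 32851 mouse promoter windows hold it. The cyclic AMP response element TGACGTCA was found in Btg2, 166 bases before the start, and 1.79% of all windows hold it. Capitals mark these motifs, and lower case marks the rest. The windows lie at chr10:96616751-96617050 on the plus strand for Btg1, at chr1:134079106-134079405 on the minus strand for Btg2 and at chr3:96557707-96558006 on the plus strand for Txnip. Each is printed 5′ to 3′ in the direction of the gene.
Btg1: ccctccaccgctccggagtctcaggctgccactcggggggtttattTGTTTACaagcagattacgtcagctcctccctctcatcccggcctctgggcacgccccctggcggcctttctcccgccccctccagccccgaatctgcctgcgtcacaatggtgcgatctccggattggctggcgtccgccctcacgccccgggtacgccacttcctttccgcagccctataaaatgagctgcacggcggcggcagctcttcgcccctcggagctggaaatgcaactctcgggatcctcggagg
Btg2: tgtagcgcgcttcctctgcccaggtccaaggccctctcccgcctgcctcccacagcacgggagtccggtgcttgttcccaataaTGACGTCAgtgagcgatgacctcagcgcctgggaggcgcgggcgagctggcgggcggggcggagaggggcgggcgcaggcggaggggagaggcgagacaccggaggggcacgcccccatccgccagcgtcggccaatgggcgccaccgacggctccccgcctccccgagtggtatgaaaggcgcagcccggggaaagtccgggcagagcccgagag
Txnip: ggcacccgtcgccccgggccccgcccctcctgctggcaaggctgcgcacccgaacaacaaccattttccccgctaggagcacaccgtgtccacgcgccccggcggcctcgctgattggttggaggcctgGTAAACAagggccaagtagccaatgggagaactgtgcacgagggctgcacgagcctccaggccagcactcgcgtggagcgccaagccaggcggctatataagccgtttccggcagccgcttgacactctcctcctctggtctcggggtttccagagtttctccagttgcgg
The core TGANTCA, which Bach proteins and AP-1 share, was in 0 of the 13 windows and in 7.81% of all windows. The E-box CACGTG was in 0 of the 13 and in 7.15% of all. Other forms of the E-box were not searched. The count thus does not show whether the windows hold sites for the TXNIP regulator MondoA with its partner MLX. A match is a description of these letters, and the absence of a match says only that they are not in these windows.

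Slfn1 and Slfn2 belong to the Schlafen family, named for its growth-arresting effect in mouse lymphocytes, and a loss-of-function allele of Slfn2 makes mouse T cells lose quiescence. Slfn2 measured 285.7 FPKM in cKO 1, 294.4 in cKO 2 and 352.9 in cKO 3, against 278.1 in WT 1, 319.3 in WT 2 and 307.6 in WT 3. The groups overlapped, with cKO 3 highest and WT 1 lowest. The log2 difference was 0.040 with a 95% interval from 0.820-fold to 1.29-fold (limma, adjusted p = 0.987).

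Slfn1 measured 75.86, 98.46 and 104.3 FPKM under the cKO label and 83.92, 82.11 and 92.82 FPKM under the WT label. Its lowest and highest values were both in libraries labelled cKO, and the log2 difference was 0.094 with an interval from 0.823-fold to 1.39-fold (adjusted p = 0.965). The family's copies share sequence. Of the Slfn2 stretches of 50 bases 4.27% occur in Slfn4, and of those of Slfn1 0.606% occur in Slfn3, Slfn4 or Gm11427, so a small part of their reads may be uncertain. Of 6 other family members 3 were tested and 0 passed. Slfn5 had a log2 difference of -0.10, Slfn8 of -0.13 and Slfn9 of 0.17, and all overlapped.

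Cdkn1b encodes p27, which binds and inhibits CDK2 with cyclin E and is marked for destruction by the ubiquitin ligase subunit SKP2 and its cofactor CKS1. It measured 13.18 FPKM in cKO 1, 19.91 in cKO 2 and 12.78 in cKO 3, against 16.3 in WT 1, 11.2 in WT 2 and 16.73 in WT 3. Its highest library was cKO 2 and its lowest WT 2, and the groups overlapped. The means were 15.29 ± 4.004 FPKM and 14.74 ± 3.08 FPKM (SD, n = 3 each). The log2 difference was 0.043, with an interval from 0.691-fold to 1.54-fold (limma, adjusted p = 0.996).

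Among the other inhibitors of cyclin-dependent kinases, Cdkn2c was apart. It encodes p18, an inhibitor of CDK4 and CDK6, and measured 22.66, 28.67 and 28.16 FPKM under the cKO label against 13.14, 16.62 and 13.75 FPKM under the WT label. Every library labelled cKO was higher than every one labelled WT. Its log2 difference of 0.83, standard error 0.167, did not pass (limma, adjusted p = 0.748). Cdkn1a, the gene of p21, overlapped widely, at 3.418 to 7.404 FPKM against 3.336 to 8.539 FPKM. Of 6 such genes 3 were tested and 0 passed, and Cdkn2d found no row in the table.

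The kinases and cyclins that p27 holds back, with the genes of its turnover, number 9. All 9 were tested and 0 passed. Cdk6 stood at 12.19, 9.172 and 9.845 FPKM against 7.111, 6.11 and 7.731 FPKM, a log2 difference of 0.51 (limma, adjusted p = 0.915). Cdk2, the main kinase that p27 inhibits, had a log2 difference of 0.043, and Skp2 one of -0.15. For Cks1b it was 0.81 and for Ccne1 0.42, neither of which passed. The cell division genes have a median log2 difference of 0.600 over 15 genes, with 8 of them not overlapping, against 10.7% of all genes, and 0 passing. The erythroid and myeloid marker sums given above separated the groups in the same direction, and their part in these values was not tested. The list was chosen with that pattern of these data known, so it is no independent support for any reading of the 10.

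Pdcd4 encodes a tumor suppressor that blocks the translation helicase eIF4A and is destroyed after mitogenic signals through S6 kinase and the ligase subunit βTrCP. It measured 107.8 FPKM in cKO 1, 119.0 in cKO 2 and 104.5 in cKO 3, against 101.2 in WT 1, 106.9 in WT 2 and 125.7 in WT 3. The libraries lay close together, with the lowest and highest both labelled WT. The means were 110.4 ± 7.63 FPKM and 111.3 ± 12.8 FPKM (SD, n = 3 each), and the log2 difference was -0.0070, with an interval from 0.796-fold to 1.24-fold (limma, adjusted p = 0.999).

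Of 6 partners and turnover genes of PDCD4, 6 were tested and 0 passed. The helicase genes were higher in each library labelled cKO than in each labelled WT. Eif4a1 stood at 150.0, 152.1 and 153.7 FPKM against 120.8, 124.4 and 128.6 FPKM, a log2 difference of 0.28 (adjusted p = 0.915). Eif4a2 had one of 0.27 (limma, adjusted p = 0.925). Its groups nearly met, at 70.73 FPKM in cKO 3 and 70.63 FPKM in WT 3. These were the 2 of the 6 genes that did not overlap, and 10.7% of all genes tested did not overlap. The list had 2 genes above 0 and 4 below, among them Eif4g1 at -0.15.

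Txnip encodes an alpha-arrestin that binds thioredoxin and draws the glucose transporter GLUT1 off the cell surface. It measured 657.1 FPKM in cKO 1, 374.2 in cKO 2 and 745.6 in cKO 3, against 594.7 in WT 1, 935.0 in WT 2 and 630.6 in WT 3. The low value of cKO 2 and the high value of WT 2 stood apart from the other 4, which lay close together. The means were 592.3 ± 194 FPKM and 720.1 ± 187 FPKM (SD, n = 3 each). The log2 difference was -0.31 with a 95% interval from -1.04 to 0.42 (limma, adjusted p = 0.933). Leaving out cKO replicate 2 brought it to -0.011 and leaving out WT replicate 2 to -0.108, so its size rests on these 2 libraries.

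Those libraries were also the ends of the depth estimate, at about 4890000 and 3010000 fragments, and the part of depth in the Txnip values was not tested. The exons of Txnip overlap those of the antisense gene Gm15441, and 15.7% of the Txnip stretches of 50 bases occur there. The sources used here give no strand setting for the counting, so reads in the overlapping part cannot be assigned to Txnip or Gm15441. Gm15441 was chosen for this overlap, after its values were seen, and stood at 108.1, 80.93 and 132.8 FPKM and at 102.6, 157.7 and 102.5 FPKM. Its lowest and highest libraries were those of Txnip. Reads of the shared part may have been counted for both genes, so this is no separate observation.

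Of 9 alpha-arrestins and genes of the TXNIP axis, 9 were tested and 0 passed. Arrdc4, the closest relative of Txnip in this list and like it a target of MondoA, measured 19.43, 12.75 and 41.56 FPKM under the cKO label and 25.8, 29.14 and 27.73 FPKM under the WT label. Its lowest library was cKO 2, as for Txnip, but its highest was cKO 3. Arrdc3 had a log2 difference of 0.21 and overlapped. Slc2a1, the gene of GLUT1, stood at 31.33, 31.08 and 33.58 FPKM against 36.52, 42.85 and 39.63 FPKM, lower in every library labelled cKO, and did not pass (limma, adjusted p = 0.925). For Txn1, the gene of thioredoxin, the log2 difference was 0.48, and the groups overlapped.

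Tsc22d3 encodes GILZ, a leucine zipper protein that glucocorticoids induce in T cells and that restrains AP-1 and NF-κB. Of the 10 it had the largest difference. It measured 54.92 FPKM in cKO 1, 75.68 in cKO 2 and 56.93 in cKO 3, against 78.08 in WT 1, 132.8 in WT 2 and 147.2 in WT 3. The groups did not overlap, but cKO 2 and WT 1 lay close together, and most of the gap came from WT 2 and WT 3. The means were 62.51 ± 11.5 FPKM and 119.4 ± 36.5 FPKM (SD, n = 3 each), a level 1.91-fold higher in the libraries labelled WT.

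Tsc22d3 had a log2 difference of -0.89, standard error 0.267, and its 95% interval ran from -1.52 to -0.25. The interval in folds ran from 0.348 to 0.842. The unadjusted p of 0.0137 from the limma fit across all genes became 0.874 with Benjamini-Hochberg adjustment, so Tsc22d3 did not pass. Over 15 alternatives of the processing the log2 difference ran from -1.16 to -0.711 and the adjusted p from 0.686 to 1.0. The sums of erythroid, myeloid and CD8 T and NK cell markers given above were higher in the libraries labelled cKO. The last of these was mostly Nkg7, while Klrd1 was lower. The part of such cells in the Tsc22d3 values was not tested. Tsc22d3 has 6 annotated transcripts, of which 3 are coding, from 952 to 1974 bases. The FPKM are per gene, so the transcripts cannot be told apart.

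**Figure D3:**
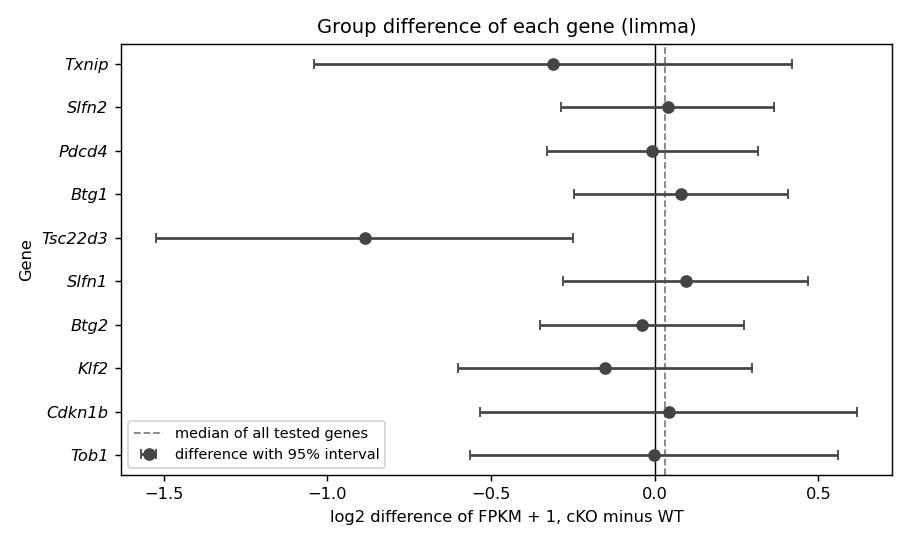
Log2 difference of FPKM + 1, cKO minus WT, for the 10 genes with its 95% interval from limma, and the median of all tested genes as a dashed line. The interval of Tsc22d3, from -1.52 to -0.25, is the only one that leaves out 0, and its adjusted p is 0.874.

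The promoter of Tsc22d3 is shown because the half-site of the glucocorticoid receptor, AGAACA, lies 185 bases before one of its 3 start sites. This window is at chrX:140600473-140600772 on the minus strand of GRCm38.p6, printed 5′ to 3′ with the motif in capitals. The half-site was also in the windows of Slfn1 and Pdcd4, and it is common, since 19.0% of all windows hold it.
Tsc22d3: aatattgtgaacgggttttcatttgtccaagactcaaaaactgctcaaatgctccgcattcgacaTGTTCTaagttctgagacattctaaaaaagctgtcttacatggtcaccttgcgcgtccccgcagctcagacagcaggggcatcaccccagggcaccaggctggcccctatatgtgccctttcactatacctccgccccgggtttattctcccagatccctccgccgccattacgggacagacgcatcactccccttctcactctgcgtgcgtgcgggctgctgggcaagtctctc
The other 2 windows of Tsc22d3 do not hold it.

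The other glucocorticoid-responsive genes lay in both directions. Of 9 genes of the TSC22 family and the glucocorticoid response, 9 were tested and 0 passed, 5 above 0 and 4 below. The receptor gene Nr3c1 stood at 48.08, 45.71 and 37.09 FPKM against 43.87, 48.45 and 34.48 FPKM, and the groups overlapped. Fkbp5, a target of the receptor, stood at 21.74, 8.929 and 19.92 FPKM against 15.29, 15.43 and 12.85 FPKM, with cKO 2 below all others. Ddit4, which inhibits mTORC1 and is also a target, stood at 15.03, 14.4 and 13.53 FPKM against 17.62, 19.67 and 23.45 FPKM, lower in every library labelled cKO (limma, adjusted p = 0.915). Dusp1 went the other way, at 63.9, 55.76 and 57.42 FPKM against 36.5, 48.97 and 52.45 FPKM (adjusted p = 0.925). Of the family, Tsc22d2 had a log2 difference of -0.37 and overlapped.

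**Figure D4:**
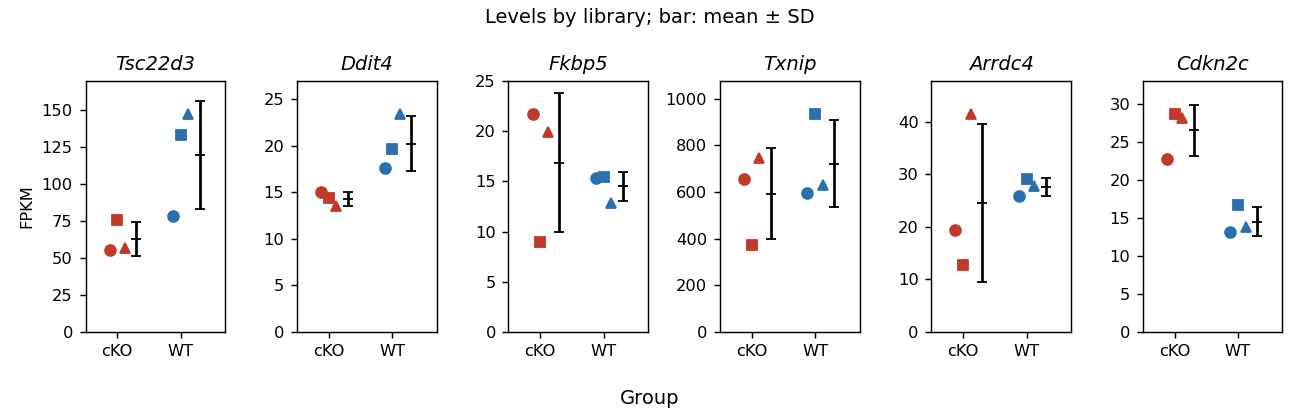
FPKM of Tsc22d3, Ddit4, Fkbp5, Txnip, Arrdc4 and Cdkn2c in each library (circles, squares and triangles for replicates 1, 2 and 3) with the mean and SD of each group beside the points; each panel has its own axis from 0. Tsc22d3 and Ddit4 are lower and Cdkn2c higher in every library labelled cKO, while Fkbp5, Txnip and Arrdc4 overlap.

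Across the 12 lists of related pathways, 107 genes with 94 tested, 0 passed. At an unadjusted p under 0.05 stood 16 of the 94, or 17%, against 5.37% of all genes, and 20, or 21.3%, did not overlap, against 10.7%. Of each count the cell division list gave 8. The lists were chosen with earlier results of these data known, so these shares are no independent support for any reading of the 10. Among 10 other regulators of T cell quiescence 9 were tested, and the groups overlapped for all 9. Foxp1, a repressor of T cell activation, had a log2 difference of -0.030 and Vsir, the gene of the checkpoint receptor VISTA, one of -0.14. Among 11 immediate early genes that cell handling can induce, 7 were tested and 0 passed, with a median log2 difference of 0.062. Of these 7 only Jun, at -0.43, did not overlap. Of the 4 below the filter, the heat shock genes Hspa1a and Hspa1b were also lower in every library labelled cKO, the direction of Tsc22d3. Hspa1a stood at 0 to 0.659 against 0.825 to 1.885 FPKM and Hspa1b at 0 to 0.0919 against 0.102 to 0.582 FPKM. They are near-identical copies named after their values were seen, so they are not separate observations. Few fragments lie behind such values, and the part of cell handling in the Tsc22d3 values was not tested. Fosb and Atf3, the others below the filter, overlapped. So did the heat shock gene Dnajb1, far above the filter, at 34.88 to 45.68 FPKM under the cKO label and 35.2 to 49.87 FPKM under the WT label.

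**Figure D5:**
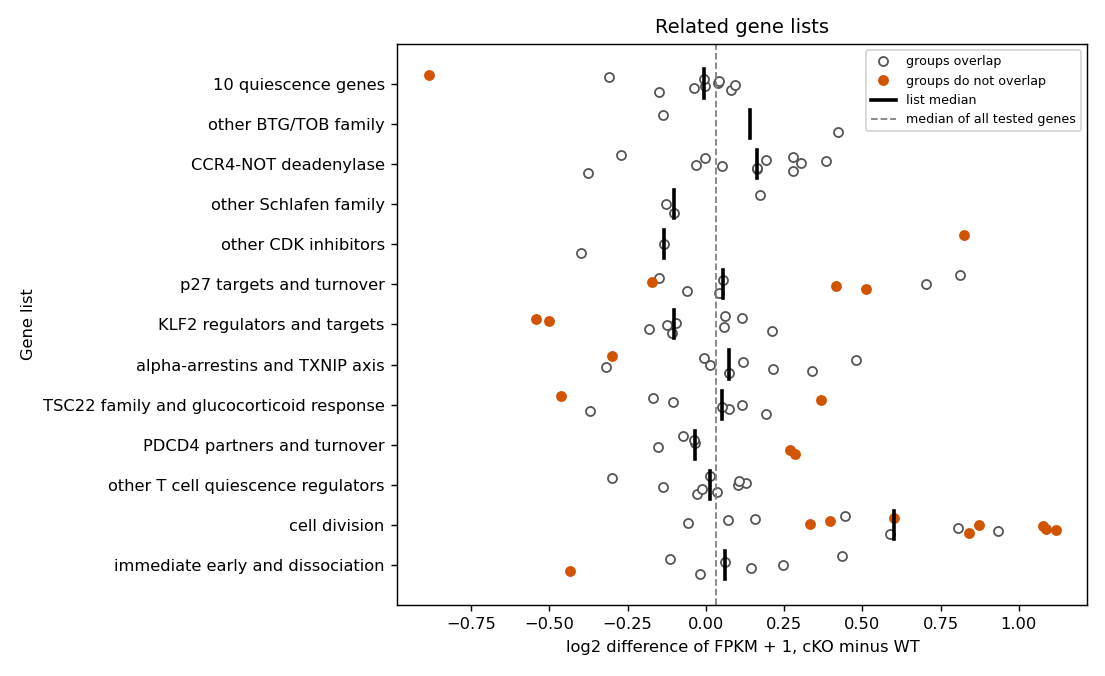
Log2 difference of FPKM + 1, cKO minus WT, of each tested gene in the 10 quiescence genes and 12 lists of related genes, filled where the groups do not overlap, with each list's median as a bar and the median of all tested genes as a dashed line. The 10 quiescence genes centre on -0.0047, and 9 of them overlap between the groups.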

How the data were processed

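The authors deposited one table of FPKM per gene, with 36811 genes in rows and the 6 libraries in columns, and its name points to cuffnorm. Libraries were made with SmartSeq2, per the labels' protocols. The submitters' processing notes name FastQC, cutadapt, HISAT2 and the builds NCBIM37 and mm9, without versions, and strand setting and annotation are not stated there. A library's FPKM summed to 1502822 to 1940807, of which the 4 highest rows took 32.4% to 46.9%.

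Of the identifiers, 31840 found a symbol in the reference tables. Each gene whose mean reached 1 FPKM was tested on log2(FPKM + 1) by limma 3.58.1 (R 4.3.3), with a variance trend and Benjamini-Hochberg adjustment. This scale understates folds of low genes. The procedure was tested on simulated data. Depth was estimated from single-transcript genes of at least 1500 bases, where 86.4% to 90.9% of low values were within 0.15 fragments of a whole number. Transcripts were those of GENCODE M21 (GRCm38), newer than the build of the values. Named genes were the 10, the 3 of each list with the smallest p, and others set by name, of which 1 is not reported here. The 10 genes and the lists were chosen with earlier results of these data known. Replicate numbers did not pair the libraries. Python 3.11.15, pandas 2.3.3 and matplotlib 3.10.9 were also used.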

Additional observations from a re-analysis of the deposited data

How the results depend on the processing

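The alternatives were a pseudocount of 0.1 or 5, testing every gene or only those with a mean of 5 FPKM or more, 3 scalings, no variance trend, a replicate block, and each of the 6 libraries left out. Of the 10 genes 0 passed under each of the 15, and of the pathway genes 0. The count of all genes that passed was 3, with 2 under scaling to equal sums, 2 with no variance trend and 1 under the replicate block, a block without support since same-numbered libraries correlated at -0.179 to -0.0173, and 5 to 15 with a library left out. Scaling to equal sums moved the median of all genes from 0.033 to 0.176 and that of the 10 from -0.0047 to 0.135, and the genes at an unadjusted p under 0.05 from 430 higher and 213 lower to 770 and 96. Under quantile and trimmed-mean scaling they were 341 and 277, and 345 and 273. The log2 difference changed sign under equal sums for Btg2 (0.117), Tob1 (0.121) and Pdcd4 (0.149), under quantile normalization for Btg1 (-0.0072) and Slfn2 (-0.101), and at a pseudocount of 0.1 for Tob1 (0.0025). With a library left out it ran from -0.281 to 0.0144 for Klf2, -0.0083 to 0.170 for Btg1, -0.107 to 0.0301 for Btg2, -0.131 to 0.154 for Tob1, -0.0543 to 0.0977 for Slfn2, -0.151 to 0.15 for Cdkn1b and -0.0718 to 0.0835 for Pdcd4. The sign held under every setting for Slfn1, Txnip and Tsc22d3. The difference of Slfn1 still fell to 0.00088 under quantile normalization, and that of Txnip shrank to -0.011 without cKO replicate 2. The cause of these changes was not tested. Depth limits Tob1 most, and the minimum of 5 FPKM left it out.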
